A study of Mus musculus with 18 samples.

Results

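The aminoacyl-tRNA synthetases are the enzymes that charge each transfer RNA with its amino acid, and 36 of their genes were followed in mouse liver over the day. The genes were taken by symbol from the normalized read count table of the series, in which all 36 were found among 14451 genes. Of these, 20 encode enzymes of the cytosol and 16 encode enzymes that act in mitochondria. A total of 14449 genes lay above the floor of the values in at least 1 liver and were tested, all 36 synthetase genes among them.

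A synthetase activates its amino acid with ATP and passes it to the matching transfer RNA, so the charged transfer RNA reaching the ribosome is a product of these enzymes. Cytosolic and mitochondrial translation mostly use separate enzymes that are both encoded in the nucleus, whereas Gars and Kars each supply both compartments. In the cytosol several synthetases are held with scaffold proteins in a multisynthetase complex. Uncharged transfer RNA is sensed by the kinase GCN2, which acts on the initiation factor eIF2, and the transcription factor ATF4 that is translated as a result is known to raise many cytosolic synthetase genes.

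Whole livers were taken from wild type male mice of 8 to 9 weeks kept in 12 h of light and 12 h of dark. Time is given as zeitgeber time (ZT), in hours after lights on, with 3 livers each at ZT1, ZT5, ZT9, ZT13, ZT17 and ZT21, 18 livers in all. The labels name the molecule as polyA RNA, while the design text speaks of whole RNA. The mice sequenced were those that gave the best RNA at each time, so the animals were selected on RNA quality, and no sequencing batch is given by the labels. All the mice had the same genotype and none was treated, so the 6 times of day are the only groups.

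The values are normalized read counts, for which 0.5 was added to the estimated reads of a gene and the sum expressed per 1000000 of the library's effective size. The livers held from 10268168 to 23242842 estimated reads, and the lowest synthetase value, for the mitochondrial prolyl enzyme Pars2, stood for 15 estimated reads. The time labels were checked on clock genes with known peaks. Nr1d1 peaked at 6.2 h, Dbp at 8.6 h, Per2 at 13.9 h and Arntl at 21.0 h. Hepatocyte markers (8 of 8 measured) summed to between 84588 and 113554 per liver, lowest at ZT9 and highest at ZT17. To this sum Alb alone gave between 50493 and 78544 per liver.

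To ask which synthetase genes vary over the day, a 24 h cosine was fitted to log2(value + 1) by limma, which gives an amplitude (the distance from the mean to the peak on that log2 scale), a peak time and an adjusted *P*-value over all genes. A rhythm was called in 12 of 36 synthetase genes, 7 cytosolic and 5 mitochondrial, at an adjusted *P*-value under 0.05. Across all genes tested 35.3% were called, so the share among the synthetase genes (33.3%) was close to the background. Their median amplitude was 0.12, beside 0.16 over all genes. Of the 12, 9 had a fitted peak in the dark and 3 in the light. Among the called genes of the whole table, 48.4% had a peak in the dark. As shares of all genes tested, 17.1% were called with a peak in the dark and 18.2% with a peak in the light. Whether the synthetase genes differ from these shares was not tested. In 29 of 36 genes all 3 livers of the highest time point were above all 3 of the lowest, as in 70.8% of all genes. JTK, a rank test of the order of the 18 livers, called 9 of 36 against 14.0% of all genes, and these 9 were among the 12.

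**Figure D1:**
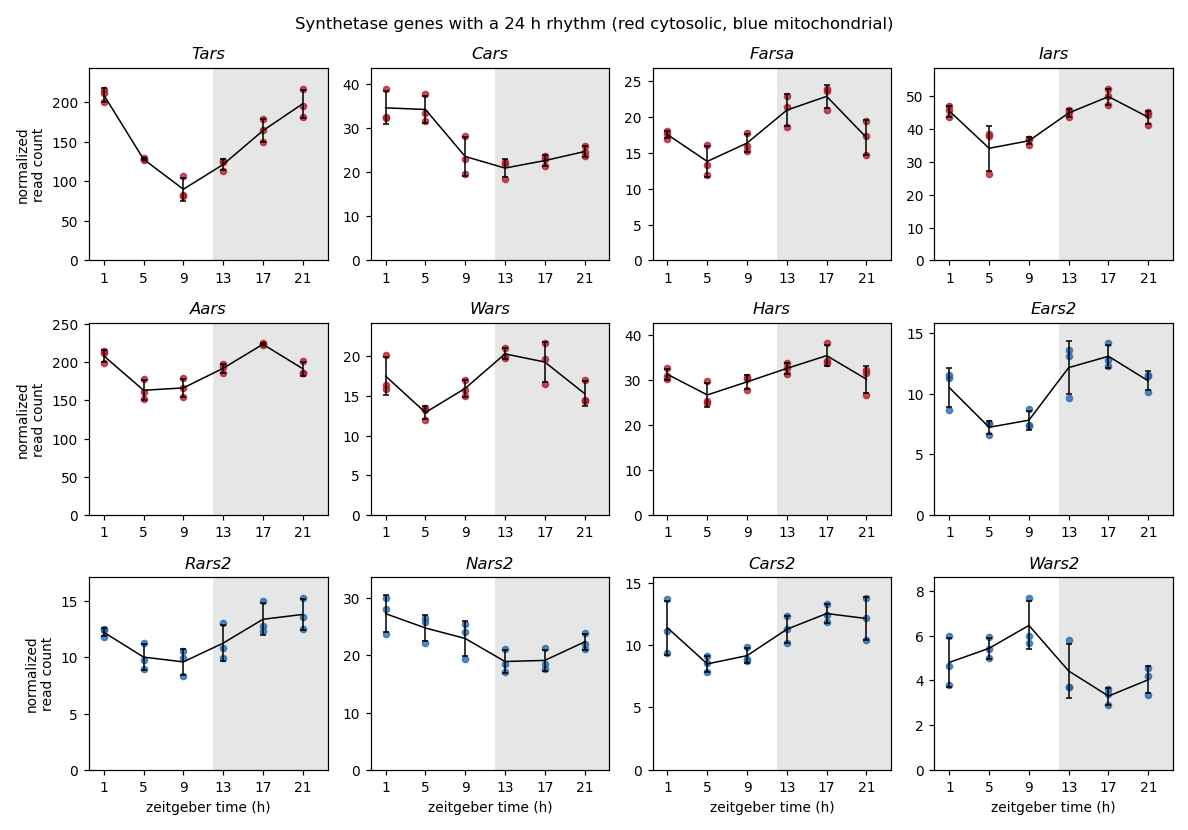
Normalized read count (y axis, from 0) against zeitgeber time (x axis, grey for lights off) of the 12 synthetase genes with a 24 h rhythm. Points are single livers and lines join the mean ± SD of 3 livers. Tars fell to its lowest values at ZT9, Cars stepped down after ZT5, and most of the others were lowest at ZT5 or ZT9 and highest at ZT17.

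The widest rhythm among the 36 was that of Tars, the cytosolic threonyl enzyme (ENSMUSG00000022241, chr15:11382301-11399665, minus strand, 19 exons, GRCm38). The 3 livers had normalized read counts of 200.0, 213 and 216 at ZT1, 129.7, 128 and 127 at ZT5, and 107, 81.0 and 82.5 at ZT9. In the dark they were 126, 113 and 125 at ZT13, 149.6, 179 and 165 at ZT17, and 182, 196 and 217 at ZT21. All 3 livers of ZT9 lay below the other 15, and the values climbed from there through the night, so that ZT21 and ZT1 overlapped at the top. The mean was 209 ± 8.40 (SD, n = 3) at ZT1 and 90.2 ± 14.6 (SD, n = 3) at ZT9, a ratio of 2.32. The fitted amplitude was 0.58 ± 0.05 (SE) with a peak at 21.8 ± 0.36 h (SE), and the adjusted *P*-value was 1.98e-06 by limma and 0.00758 by JTK.

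Cars, the cytosolic cysteinyl enzyme (ENSMUSG00000010755, chr7:143557230-143600090, minus strand, 23 exons), was the called cytosolic gene with a peak in the light, the other 6 peaking in the dark. Its counts were 39.0, 32.5 and 32.4 at ZT1 and 37.7, 33.4 and 31.6 at ZT5. They were 23.0, 28.2 and 19.5 at ZT9, 18.6, 21.9 and 22.4 at ZT13, 22.9, 23.7 and 21.3 at ZT17, and 23.6, 24.6 and 25.9 at ZT21. The 6 livers of ZT1 and ZT5 were all above the other 12, which reached 28.2 at most. The amplitude was 0.37 ± 0.06 (SE) with a peak at 2.5 ± 0.57 h (SE), with an adjusted *P*-value of 0.000253 by limma and 0.0229 by JTK.

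Farsa encodes the catalytic alpha subunit of the cytosolic phenylalanyl enzyme (ENSMUSG00000003808, chr8:84856989-84869257, plus strand). Its livers had counts of 17.0, 17.7 and 18 at ZT1, 11.9, 13.4 and 16.2 at ZT5, 16.0, 15.3 and 17.8 at ZT9, 21.4, 23.0 and 18.6 at ZT13, 23.7, 24 and 21.0 at ZT17, and 19.5, 14.7 and 17.3 at ZT21. The livers of ZT17 overlapped only those of ZT13 and were above the other 12. The amplitude was 0.29 ± 0.06 (SE), the peak was at 16.3 ± 0.76 h (SE) and the adjusted *P*-value was 0.00279 by limma. Farsb, the beta subunit that joins Farsa in the same enzyme, had counts of 34.1, 32.3 and 33.4 at ZT1, 29.1, 30.2 and 30.5 at ZT5, 25.2, 29.1 and 27.9 at ZT9, 28.6, 28 and 32.1 at ZT13, 34.2, 30.1 and 32.0 at ZT17, and 28.7, 30.4 and 39.0 at ZT21. Its livers of ZT1 were all above those of ZT5, ZT9 and ZT13, while those of ZT17 and ZT21 overlapped other times, and its lowest mean was at ZT9. Its amplitude of 0.12 ± 0.04 (SE) did not pass by limma (adjusted *P*-value 0.0676). Without replicate 1 or without replicate 2 of ZT21 it did, with an adjusted *P*-value as low as 0.0232. The difference in rhythm between the 2 subunits was not tested.

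The cytosolic isoleucyl enzyme Iars (ENSMUSG00000037851, chr13:49682100-49734267, plus strand) was low in the middle and late light phase. Its counts were 43.6, 46.9 and 45.6 at ZT1, 26.1, 38.4 and 37.7 at ZT5, 35.2, 36.9 and 37.0 at ZT9, 45, 43.5 and 45.7 at ZT13, 49.8, 52.1 and 47.3 at ZT17, and 41.2, 45.1 and 44.1 at ZT21. The 6 livers of ZT5 and ZT9 were all below the other 12. The amplitude was 0.24 ± 0.05 (SE) with a peak at 18.3 ± 0.86 h (SE) and an adjusted *P*-value of 0.00698 by limma. Of the 50-base stretches of its transcript 8.61% recur in the pseudogene Gm4849, where reads can be shared.

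Aars, the alanyl enzyme (ENSMUSG00000031960, chr8:111033144-111057664, plus strand), had the same low and high times. Its counts were between 152 and 179 in the 6 livers of ZT5 and ZT9 and between 185 and 225 in the other 12. The 3 livers of ZT17 had 225, 224 and 222 and stood above all 15 others. The amplitude was 0.19 ± 0.04 (SE) and the peak at 18.9 ± 0.89 h (SE), with an adjusted *P*-value of 0.00851 by limma. Exons of Aars share 1326 bases with Exosc6 on the same strand, so reads there cannot be assigned to 1 gene by sequence.

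Wars, the tryptophanyl enzyme, was between 12.0 and 13.5 in the livers of ZT5 and between 14.3 and 21.6 in the other 15. Its fitted peak was at 15.6 ± 1.1 h (SE), with an amplitude of 0.22 ± 0.06 (SE) and adjusted *P*-values of 0.0277 by limma and 0.0542 by JTK. Hars, the histidyl enzyme, peaked at 16.7 ± 1.1 h (SE) with the narrowest called amplitude, 0.15 ± 0.04 (SE), and an adjusted *P*-value of 0.033 by limma. The calls of Wars and Hars by limma were each lost in 6 of 18 leave-one-out fits, and both were lost after rescaling to equal column sums. Hars shares 195 exon bases with Hars2 on the opposite strand, and the counting is not stated to use strand.

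Promoter sequences are shown for the 3 called cytosolic genes whose windows hold both a motif of the clock factors and a motif of ATF4. RefSeq (GRCm38.p6) gave windows from 250 bases before to 50 bases after the start for 27 of the 36 genes, 28 windows in all. Capitals mark CACGTG, the E-box that BMAL1 and CLOCK are known to bind, and TGATGNAA, the composite element bound by ATF4 with C/EBP factors, both searched on both strands. The windows are chr15:11399609-11399908 (minus strand) for Tars, chr13:49681880-49682179 (plus strand) for Iars and chr8:111033592-111033891 (plus strand) for Aars.
Tars: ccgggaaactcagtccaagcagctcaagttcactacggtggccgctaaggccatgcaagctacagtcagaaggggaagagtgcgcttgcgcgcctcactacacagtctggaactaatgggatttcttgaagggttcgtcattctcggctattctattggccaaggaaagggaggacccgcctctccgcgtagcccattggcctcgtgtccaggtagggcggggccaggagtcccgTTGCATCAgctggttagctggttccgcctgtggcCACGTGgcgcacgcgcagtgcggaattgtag
Iars: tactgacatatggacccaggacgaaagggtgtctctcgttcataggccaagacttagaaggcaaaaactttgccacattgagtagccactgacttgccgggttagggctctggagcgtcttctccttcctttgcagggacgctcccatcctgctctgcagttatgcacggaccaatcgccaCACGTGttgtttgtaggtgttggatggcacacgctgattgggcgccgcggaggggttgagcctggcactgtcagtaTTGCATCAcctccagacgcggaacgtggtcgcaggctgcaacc
Aars: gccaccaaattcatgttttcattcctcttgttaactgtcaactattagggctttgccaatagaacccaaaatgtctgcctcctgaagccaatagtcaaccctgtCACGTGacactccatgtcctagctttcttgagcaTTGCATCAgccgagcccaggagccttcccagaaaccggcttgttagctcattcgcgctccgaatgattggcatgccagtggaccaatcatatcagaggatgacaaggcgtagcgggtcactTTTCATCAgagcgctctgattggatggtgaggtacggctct
In Tars the composite element starts 15 bases before and the E-box 20 bases after the RefSeq start. In Iars the E-box lies 69 bases before the start, and in Aars the E-box lies 146 bases before it, with composite elements 112 bases before and 10 bases after. The E-box was also found in Farsb and in Ears2, and the composite element in Gars and in Yars.

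Each of the 2 motifs was thus in 5 of the 28 windows (17.9%), while 7.15% of all 32851 RefSeq windows hold the E-box and 3.97% the composite element. Among the 13198 windows of genes in the table the shares were 9.60% and 2.36%. Of the 5 genes with an E-box 4 were called rhythmic (Tars, Iars, Aars and Ears2), and of the 5 with the composite element 3 were called, beside 9 of all 27 genes with a window. Of the 9 called genes with a window, 5 hold neither (Farsa, Cars2, Nars2, Rars2 and Wars2). None of the windows holds the D-box TTANGTAA, which 2.32% of all windows and 1.64% of those of genes in the table hold. The match of letters shows no binding, and its relation to the rhythms was not tested.

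Among the mitochondrial enzymes the lowest adjusted *P*-value was that of Ears2, the glutamyl enzyme (ENSMUSG00000030871, chr7:122037213-122067263, minus strand, 9 exons). Its counts were 8.69, 11.3 and 11.5 at ZT1, 7.58, 6.63 and 7.51 at ZT5, 8.73, 7.41 and 7.36 at ZT9, 13.6, 9.68 and 13.2 at ZT13, 14.2, 12.3 and 12.8 at ZT17, and 11.5, 11.6 and 10.2 at ZT21. The livers of ZT5 and ZT9 were the low ones and met the rest only at 1 liver of ZT1. The mean was 13.1 ± 0.955 (SD, n = 3) at ZT17 and 7.24 ± 0.531 (SD, n = 3) at ZT5, a ratio of 1.81. The amplitude was 0.37 ± 0.06 (SE) with a peak at 17.8 ± 0.62 h (SE), and the adjusted *P*-value was 0.000489 by limma and 0.0354 by JTK. Its exons share 89 bases with Ubfd1 on the opposite strand, which was 31.2 on average and was not called (adjusted *P*-value 0.135 by limma). The fitted amplitude of Ubfd1 was 0.17 ± 0.07 (SE) with a peak at 17.5 h, near that of Ears2. A share of Ubfd1 reads in the Ears2 counts was not tested.

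Rars2, the mitochondrial arginyl enzyme, also rose in the dark. Its counts were 12.5, 12.4 and 11.8 at ZT1, 11.3, 9.80 and 8.97 at ZT5, 9.92, 8.34 and 10.5 at ZT9, 9.96, 13.0 and 10.8 at ZT13, 12.4, 12.8 and 15 at ZT17, and 12.6, 13.6 and 15.3 at ZT21. All 3 livers of ZT21 were above the 6 of ZT5 and ZT9. The amplitude was 0.26 ± 0.05 (SE), the peak was at 19.8 ± 0.68 h (SE) and the adjusted *P*-value was 0.00113 by limma.

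Cars2, the mitochondrial cysteinyl enzyme, had counts of 11.2, 9.35 and 13.7 at ZT1, 9.09, 7.85 and 8.56 at ZT5, 8.90, 9.86 and 8.73 at ZT9, 12.3, 11.3 and 10.2 at ZT13, 12.4, 11.9 and 13.3 at ZT17, and 13.8, 10.4 and 12.2 at ZT21. The 9 livers of the dark phase were all above the 6 of ZT5 and ZT9, with the livers of ZT1 spread over both ranges. The amplitude was 0.25 ± 0.05 (SE) with a peak at 18.6 ± 0.77 h (SE), which passed by limma (adjusted *P*-value 0.00308) and not by JTK (0.0684). Cars2 shares 422 exon bases with Naxd on the opposite strand.

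The other 2 called mitochondrial genes had peaks in the light. Nars2, the asparaginyl enzyme, had counts of 28.1, 30.1 and 23.8 at ZT1, 22.2, 25.8 and 26.5 at ZT5, 24, 19.4 and 25.4 at ZT9, 17.2, 21.2 and 18.5 at ZT13, 18.6, 21.2 and 17.6 at ZT17, and 21.2, 24 and 22.0 at ZT21. The 6 livers of ZT13 and ZT17 were below the 6 of ZT1 and ZT5. Its amplitude was 0.25 ± 0.05 (SE), its peak at 2.8 ± 0.75 h (SE) and its adjusted *P*-value 0.00247 by limma. Wars2, the tryptophanyl enzyme, ranged from 5.68 to 7.68 at ZT9 and from 2.88 to 3.62 at ZT17. Its peak was at 6.6 ± 0.79 h (SE), with an amplitude of 0.33 ± 0.07 (SE) and an adjusted *P*-value of 0.00365 by limma, and it was not called by JTK (0.105). Wars2 rested on between 39 and 129 estimated reads per liver.

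**Figure D2:**
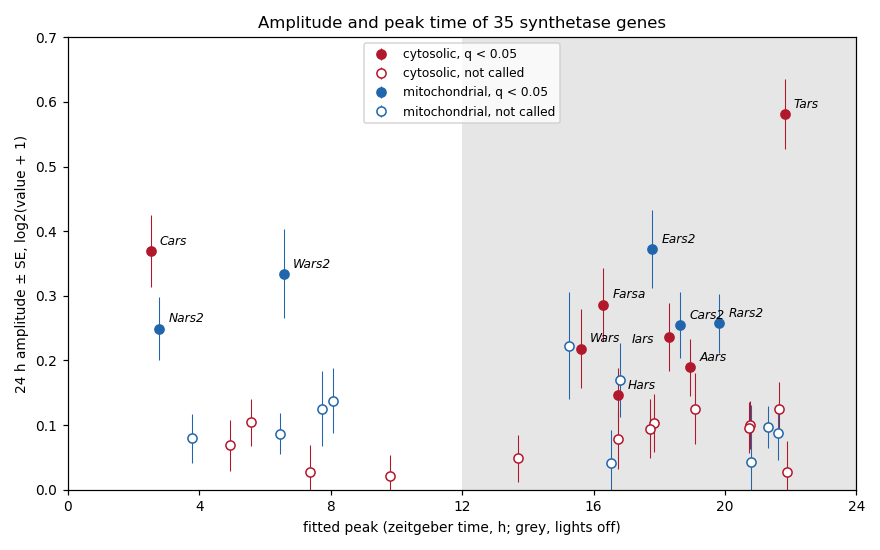
Amplitude of the 24 h cosine ± SE on the log2(value + 1) scale (y axis) against its fitted peak in hours after lights on (x axis, grey for lights off) for 35 genes; Lars2, whose SE was 0.25, is left out. Filled points passed an adjusted P-value of 0.05: 9 lie in the dark between 15.6 and 21.8 h and 3 in the light between 2.5 and 6.6 h.

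The remaining 24 genes did not pass the 24 h test, 13 cytosolic and 11 mitochondrial. Judged by how far its highest time point mean stood above its lowest, the steadiest cytosolic gene was Kars, the lysyl enzyme of both compartments, with means between 43.9 and 46.7, a ratio of 1.06, just under the 1.07 of Eprs, which varied less within time points (4.5% against 8.17%, the SD as a percent of the mean). The Kars counts were 48.1, 48.0 and 42.8 at ZT1, 50.1, 44.6 and 43.1 at ZT5, 45.8, 51.6 and 42.8 at ZT9, 50.9, 40.7 and 44.7 at ZT13, 42.1, 46.9 and 47.7 at ZT17, and 46.4, 44.7 and 40.6 at ZT21, so every time point overlapped every other. Its amplitude was 0.03 ± 0.04 (SE, adjusted *P*-value 0.845 by limma). Gars, the glycyl enzyme that also serves both compartments, had counts of 40.7, 40.7 and 42.0 at ZT1, 35.9, 39.8 and 38.1 at ZT5, 30.3, 39.2 and 38.0 at ZT9, 37.3, 37.7 and 37.2 at ZT13, 40.7, 43.0 and 43.3 at ZT17, and 40.1, 39.1 and 40.3 at ZT21. The livers of ZT1 and ZT17 were the highest, by little, and the amplitude of 0.10 ± 0.04 (SE) did not pass (adjusted *P*-value 0.1 by limma).

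By the same measure, the steadiest mitochondrial gene was Aars2, the alanyl enzyme. Its counts were 15.6, 14.1 and 17.3 at ZT1, 14.6, 15.3 and 14.0 at ZT5, 14.5, 18.5 and 14.5 at ZT9, 18.2, 13.6 and 16.7 at ZT13, 14.9, 18.9 and 13.8 at ZT17, and 15.5, 15.6 and 16.9 at ZT21. The spread within a time point was as wide as that between them. The amplitude was 0.04 ± 0.05 (SE), with an adjusted *P*-value of 0.778 by limma.

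Of the 8 synthetases of the multisynthetase complex (Dars, Eprs, Iars, Kars, Lars, Mars, Qars and Rars) 1 was called, Iars, whereas 6 of the 12 cytosolic genes outside it were called. Eprs, the fused glutamyl and prolyl enzyme, had the lowest amplitude of the 36, 0.02 ± 0.03 (SE), and Lars, the leucyl enzyme, had 0.03 ± 0.05 (SE). The difference between the groups was not tested, and over all genes 35.3% were called. By catalytic fold, 7 of 18 class I and 5 of 17 class II genes were called. Of the 13 cytosolic genes commonly listed as ATF4 targets 5 were called (Aars, Cars, Iars, Tars and Wars), and of the other 7 cytosolic genes 2 were (Farsa and Hars). The shares by fold (38.9% and 29.4%) and by this list (38.5% and 28.6%) lay near that of all genes.

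A test of any difference between the 6 times, with no assumed shape, called 13 of 36 genes, beside 26.3% of all genes. It left out Hars (adjusted *P*-value 0.0607) and added Mars and Nars. Mars, the methionyl enzyme, had 63.4, 65.5 and 64.4 at ZT1, above all 15 other livers, and a second high mean of 60.6 ± 0.815 (SD, n = 3) at ZT17 (adjusted *P*-value 0.0369 by limma). Nars, the asparaginyl enzyme of the cytosol, had its highest means at ZT17, 118 ± 9.63 (SD, n = 3), and at ZT1, 112 ± 2.74 (SD, n = 3) (adjusted *P*-value 0.0367 by limma). A mean at ZT21 below those of both ZT17 and ZT1 was also seen in Aars, Iars and further members. Among these, Yars had means of 36.7, 31.5 and 36.8 at ZT17, ZT21 and ZT1, Rars 33.6, 27.8 and 30.6, and Gars 42.3, 39.9 and 41.1. In Iars the livers of ZT21 (41.2 to 45.1) overlapped those of ZT1 (43.6 to 46.9). The share of all genes with this order was not counted. None of the 36 genes passed the test of a 12 h term added to the 24 h cosine by limma, with 4 at an unadjusted *P*-value under 0.05, and 0.872% of all genes passed. No other tool was run on that term. Mars shares 68 exon bases with Ddit3 on the opposite strand.

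To compare the night with the day, the mean of ZT13, ZT17 and ZT21 was set against that of ZT1, ZT5 and ZT9. This called 12 genes, the same 12 as the 24 h fit. Higher in the dark were 9 genes (11.9% of all genes were), namely Hars, Farsa, Wars, Tars, Aars, Iars, Rars2, Ears2 and Cars2. Higher in the light were 3 (12.3% of all genes were), namely Cars, Nars2 and Wars2. On the log2(value + 1) scale the difference was 0.47 ± 0.08 (SE) in Ears2 (adjusted *P*-value 0.000385 by limma), 0.33 ± 0.07 (SE) in Farsa (0.00327), -0.40 ± 0.07 (SE) in Cars (0.00106) and -0.42 ± 0.10 (SE) in Wars2 (0.00521).

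The count in each direction depended on the scaling. The deposited columns sum to different totals, from 941088 to 1077230, with means of 986006 in the light and 1027894 in the dark. After each liver was rescaled to 1000000, which lowers dark minus light by 0.06 on the log2 scale of the values, and by less on the log2(value + 1) scale in genes of low value, and moves single livers by between -0.11 and 0.09, 4 genes were higher in the dark (Farsa, Iars, Ears2 and Cars2; 7.45% of all genes) and 6 higher in the light (Cars, Dars, Sars, Iars2, Nars2 and Wars2; 17.1% of all genes). No called gene changed direction under that scaling. Median-ratio size factors, another scaling tried, shift dark minus light by 0.006 on the log2 scale of the values and single livers by between -0.03 and 0.002. Which scaling is closer to the RNA content of the cells cannot be told apart here.

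**Figure D3:**
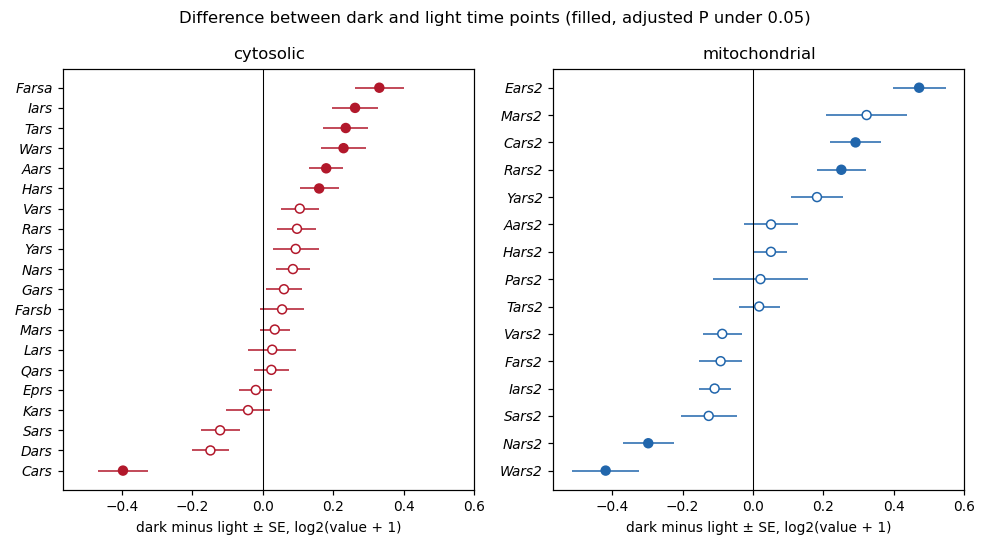
Difference between the mean of the dark time points and the mean of the light time points ± SE on the log2(value + 1) scale (x axis) for 20 cytosolic and 15 mitochondrial genes, sorted within each panel, Lars2 left out. Filled points passed an adjusted P-value of 0.05, 9 to the right of 0 and 3 to the left.

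Markers of some other liver cells also moved over the day. Summed Kupffer cell markers (7 of 7 measured) lay between 213 and 291 per liver at ZT5 and between 110 and 167 at ZT21. Sinusoidal endothelial markers (6 of 6) lay between 173 and 221 at ZT5 and between 87.9 and 171 at ZT17. By limma 4 of the 7 and 3 of the 6 were called rhythmic, all with peaks in the light, where 18.2% of all genes were called, and JTK called 0 of both. Of 7 stellate cell markers 1 was called, also in the light. Some other markers moved the opposite way. Hepatocyte markers summed to between 84588 and 86004 at ZT9 and between 101332 and 113554 at ZT17, with no overlap. Alb alone gave 50493 to 55084 at ZT9 and 67942 to 78544 at ZT17. Ttr, Serpina1c and Tat were also higher in every liver of ZT17 than of ZT9, while Fgb and Cps1 overlapped. Apoa1 (6543 to 7398 at ZT9, 5661 to 6276 at ZT17) and Apob (6290 to 6367, 5318 to 5876) were lower. By limma 3 of the 8 hepatocyte markers were called, all with peaks in the dark. So were 3 of 5 cholangiocyte markers, beside 17.1% of all genes called with a peak in the dark. The summed cholangiocyte markers, however, had close means at ZT9 (48.3) and ZT17 (48.9). Of 5 erythroid and 3 measured lymphocyte markers 0 were called by limma. No Kupffer or endothelial marker was at 0 reads in any liver. Their part in the synthetase values was not tested, and in whole liver fewer cells of a type and less RNA per cell cannot be told apart.

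For 13 amino acids the table holds a cytosolic gene and its own mitochondrial partner. Both partners were called for cysteine and tryptophan, the cytosolic one alone for alanine, histidine, isoleucine and threonine, the mitochondrial one alone for asparagine and arginine, and neither for the other 5. In both pairs with 2 calls the fitted peaks lay far apart. Cars peaked at 2.5 h and Cars2 at 18.6 h, 7.87 h apart, and the dark minus light difference was -0.40 in Cars and 0.29 in Cars2. Wars peaked at 15.6 h and Wars2 at 6.6 h, 9.04 h apart, with differences of 0.23 in Wars and -0.42 in Wars2. The SE of these peak times was at most 1.1 h, but the difference between partners was not itself tested.

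The threonyl pair differed mainly in size. Tars had an amplitude of 0.58 and Tars2, with a fitted peak at 21.6 h, one of 0.09 ± 0.04 (SE, adjusted *P*-value 0.215 by limma). In the isoleucyl pair Iars was called and Iars2, whose 0.09 ± 0.03 (SE) amplitude had its fitted peak at 6.5 h, was not (adjusted *P*-value 0.102 by limma). Exons of Iars2 share 2034 bases with Rab3gap2 on the opposite strand. Per kilobase of the principal transcript the cytosolic partner had the higher mean normalized count in 11 of 13 pairs, the exceptions being isoleucine and leucine.

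**Figure D4:**
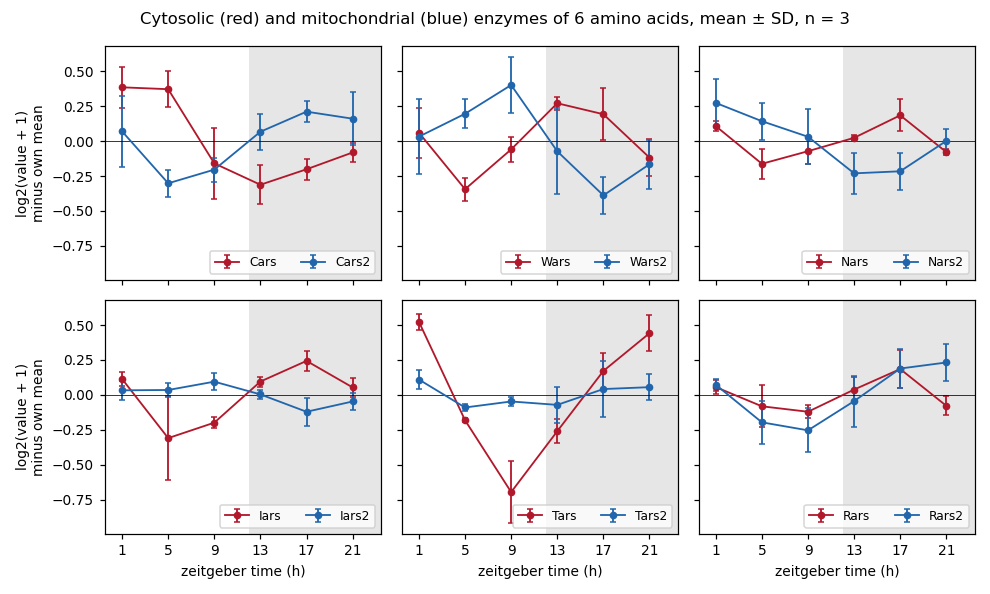
Mean ± SD of 3 livers of log2(value + 1) minus each gene's own mean (y axis) against zeitgeber time (x axis, grey for lights off) for the cytosolic (red) and mitochondrial (blue) enzymes of 6 amino acids. Cars and Cars2 cross between ZT9 and ZT13, Wars is high at ZT13 and ZT17 where Wars2 is falling or low, and Tars moves far more than Tars2.

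Levels per kilobase of transcript, the mean normalized count over 18 livers divided by transcript length, were highest in the cytosolic set for Nars (38.0), Tars (37.9) and Dars (36.6). They were lowest there for Lars (6.90), Vars (7.28) and Cars (8.32). In the mitochondrial set Mars2 (0.460), Pars2 (0.974) and Wars2 (1.07) were lowest. The place of Mars2 depends on the transcript length used, 11294 bases. By mean count Mars2 (5.19) stood above Wars2 (4.74) and Pars2 (2.13). The medians were 15.4 in the cytosolic and 5.84 in the mitochondrial set.

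Lars2, the mitochondrial leucyl enzyme, stood apart at 84.7 per kilobase and in its spread. Its counts were 236, 507 and 282 at ZT1, 172, 201 and 251 at ZT5, 192, 959 and 248 at ZT9, 229, 500.0 and 115 at ZT13, 225, 729 and 299 at ZT17, and 402, 234 and 154 at ZT21. At ZT1, ZT9, ZT13 and ZT17 the liver numbered 2, and at ZT21 the liver numbered 1, was high while the other 2 were not (numbers follow accession order), so no time point stood clear of the rest. The SD within a time point averaged 56.2% of the mean, against a median of 7.53% over the other 35 genes, and the amplitude was 0.11 ± 0.25 (SE, adjusted *P*-value 0.927 by limma).

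Of 14448 other genes, those that followed Lars2 most closely over the 18 livers on the log2(value + 1) scale were Gm15564 and Rn18s-rs5, named after their values were seen. Pearson's r was 0.95 and Spearman's rho 0.87 for Gm15564, and r was 0.95 and rho 0.90 for Rn18s-rs5, an 18S ribosomal RNA related sequence. Without the 2 livers farthest from the median of the other gene, r was 0.91 and 0.93. Rn18s-rs5 ranged from 1202 to 7114 and Gm15564 from 1.35 to 14.4. Over the other 35 synthetase genes r with Rn18s-rs5 was between -0.51 and 0.45. The Lars2 transcript and Gm15564 have 3 stretches of 50 bases in common on the same strand. No *P*-value is given, since these genes were picked as the closest of all, and the livers share depth and preparation with both measures. Whether the reads counted for Lars2 came from its messenger RNA was not tested.

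**Figure D5:**
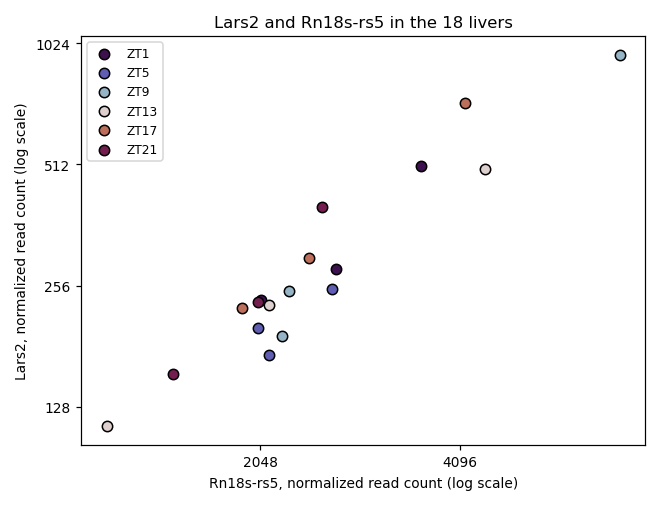
Normalized read count of Lars2 (y axis, log scale) against that of Rn18s-rs5 (x axis, log scale) in the 18 livers, coloured by zeitgeber time. The livers lie along 1 rising line from 115 and 1202 to 959 and 7114, and livers of one time point are spread along it.

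Among the scaffold proteins of the multisynthetase complex 2 of 3 were called. Aimp2 peaked at 12.7 ± 0.75 h (SE) with an amplitude of 0.29 ± 0.06 (SE, adjusted *P*-value 0.0025 by limma), its 3 livers of ZT13 having 8.60, 8.65 and 8.64 and those of ZT5 5.19, 5.28 and 5.27. Eef1e1 (AIMP3) peaked at 15.7 ± 0.99 h (SE, amplitude 0.24 ± 0.06, adjusted *P*-value 0.0177 by limma). Aimp1 had an amplitude of 0.06 ± 0.05 (SE) and was not called (0.53). Of 9 genes related to the synthetases 2 were called, the alanyl editing protein gene Aarsd1 with a peak at 15.5 h and Prorsd1 with a peak at 22.0 h.

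In the list of genes of the integrated stress response other than synthetases, 11 of 26 measured were called, 6 with a peak in the dark and 5 in the light. Atf4 itself, named outside the rule, peaked at 21.0 ± 0.71 h (SE) with an amplitude of 0.32 ± 0.06 (SE, adjusted *P*-value 0.0016 by limma). Its counts ran from 116 to 131 at ZT1 and from 67.4 to 82.6 at ZT9, the times at which Tars was also highest and lowest. The other called synthetase genes commonly given as ATF4 targets did not share both times. Aars and Iars were highest at ZT17 and lowest at ZT5, Cars at ZT1 and ZT13, and Wars at ZT13 and ZT5. Some of these times were near ties. Atf4 ran from 114 to 120 at ZT17, overlapping ZT1, and from 73.3 to 97.8 at ZT5, overlapping ZT9. The second highest means of Aars (208) and Iars (45.4) were at ZT1, and both genes were also low at ZT9 (means 166 and 36.3). The relation of Atf4 to the synthetase genes was not tested. The 4 lowest adjusted *P*-values of the list were those of Ddit4, an inhibitor of mTORC1 signalling (peak 19.2 h), the transcription factor gene Atf5 (0.24 h), the pseudokinase gene Trib3 (6.5 h) and the serine synthesis enzyme gene Psph (20.3 h). The peaks of these 4 were thus spread over the day. Asns, asparagine synthetase, was low in these livers, 1.18 on average, and was not called (0.529 by limma). Replicate 1 of ZT5 had 6.93, while the other livers had between 0.42 and 1.60.

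Of 9 genes of GCN2 and eIF2 control 3 were called, the eIF2 kinase gene Eif2ak1 with a peak at 4.5 h, the phosphatase subunit gene Ppp1r15b at 13.3 h and the GCN2 inhibitor gene Impact at 21.6 h. Eif2ak4, which encodes GCN2, had an amplitude of 0.12 ± 0.05 (SE) and was not called (adjusted *P*-value 0.133 by limma). Of 31 genes of transfer RNA transcription, processing and export 8 were called, 4 with a peak in each phase. The lowest adjusted *P*-values there were those of the RNA polymerase III subunit genes Polr3k (peak 20.9 h) and Crcp (13.4 h), the transfer RNA exportin gene Xpot (10.5 h) and the TFIIIC subunit gene Gtf3c3 (2.5 h). These shares stand beside the 35.3% called over all genes.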

How the data were processed

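Reads were demultiplexed with CASAVA 1.8.2, trimmed with cutadapt, and quantified on GRCm38 with RSEM 1.2.20, according to the submitters' processing notes and methods. The values the authors deposited are a normalized signal made with limma, for which 0.5 was added to each gene's estimated reads and the sum expressed per 1000000 of the library's effective size. Whether counting used strand is not given in the sources used here. The lowest value of a liver stands for 0 reads, from which estimated reads were recovered. As these were often not whole, count tests were not used.

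Values were analysed as log2(value + 1) with limma 3.58.1 in R 4.3.3 (24 h and 12 h terms, 6 time points, dark minus light, moderated tests, Benjamini–Hochberg over 14449 genes, threshold 0.05), and JTK in Python 3.11.15. The scripts were tested on simulated data. The members and lists were chosen with earlier results of these data known. Values of every liver are given for the 4 cytosolic and 4 mitochondrial genes with the lowest adjusted *P*-value, the gene of each set with the smallest ratio of highest to lowest time point mean, Gars, Kars, Farsa and Farsb. Of every other list up to 4 called genes were named. Lars2, Mars and Atf4 were added after their values were seen. Asns and Eif2ak4, which were not called, were also named outside that rule. Alternatives were other pseudocounts, filters, scalings, models and algorithms, and leaving out each liver. One gene model per gene (GENCODE, GRCm38) gave positions and lengths.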

Additional observations from a re-analysis of the deposited data

How the results depend on the processing

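The number of synthetase genes with a 24 h rhythm was 12 of 36. It stayed between 8 (CircaN) and 17 (fit to linear values) over the other settings tried, and between 10 and 14 when 1 liver was left out. CircaN called 13.7% of all genes, and the shares of all genes in the linear and leave-one-out fits are not given here. The number among mitochondrial genes was 5, and 2 by CircaN, whose curve constants had to be read from a drawing. Genes higher in the dark numbered 9, and 4 after rescaling to 1000000. Genes higher in the light numbered 3, 6 after rescaling and 5 with a pseudocount of 5. The rescaling itself lowers the dark values; the cause of the other changes was not tested. The JTK count of 9 ranged from 4 to 10 when 1 liver was left out, with 4 without replicate 2 or without replicate 3 of ZT5 and 5 without replicate 1 or without replicate 3 of ZT17. No member passed the 12 h test in any fit. No fit reversed a called gene. Without 1 liver at a time, Tars, Cars, Farsa, Iars, Aars, Ears2, Rars2, Nars2, Cars2 and Wars2 passed the 24 h test in 18 of 18 fits, and Wars and Hars in 12. No paired analysis was possible because each liver came from another mouse and the replicate numbers follow accession order. With 3 livers per time the 24 genes not called may still vary by less than these tests resolve, above all Pars2 and Mars2, which rest on few reads.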
